A study of Mus musculus with 55 samples.

Results

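The Zfp genes measured here are mouse genes with a symbol made of Zfp and a number, a naming series of zinc finger protein genes. The members were chosen by their level in wild-type fully grown oocytes (FGOs). A gene was kept when its mean over the 18 wild-type FGOs was at least 5 CPM, its read count scaled to the library's total count. The imprint protectors Zfp57 and Zfp445 and the genes Zfp36 and Zfp264 were left out by name. Of the 51734 genes counted, 373 carried such a symbol, 211 became members, 158 were under the limit and 4 were left out. Of the members, 101 lay in 18 chromosome clusters and 110 outside them. A cluster was a run of at least 5 Zfp symbols with neighbouring starts at most 1 Mb apart, whether expressed or not.

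The study changed the ADD domain, the part of the DNA methyltransferase DNMT3A and of its cofactor DNMT3L that reads histone H3 tails without methylation at lysine 4. Each oocyte library was made from a single cell, with a whole-transcript kit. There were 18 wild-type FGOs, 8 FGOs labelled Dnmt3a+/+Dnmt3LD124A/D124A (Dnmt3L ADD/ADD below), 8 labelled Dnmt3aADA/ADADnmt3L+/+ (Dnmt3a ADD/ADD), 8 homozygous for both mutations (double mutant) and 10 wild-type oocytes at metaphase II (MII), ovulated after hormone treatment. FGOs came from mice 10 to 12 weeks old, backcrossed to C57BL/6J, and were pooled in medium before libraries were made. The labels tie no oocyte to a mouse, so p-values measure the spread between oocytes. Germline point mutations act in every cell of the animal and leave the transcripts in place, so the counts do not check the genotypes. The series also holds 3 embryos of embryonic day 9 from double mutant oocytes and a wild-type paternal side, with reads split by parental allele.

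Zinc finger proteins of this kind carry rows of C2H2 fingers, each a small zinc-binding loop that contacts a few bases of DNA or RNA. Many also carry a KRAB box, which binds the corepressor TRIM28 (KAP1). TRIM28 in turn recruits the histone methyltransferase SETDB1, and several KRAB zinc finger proteins silence retroelements or guard imprints in this way. KRAB zinc finger genes sit in chromosome clusters that grew by tandem duplication.

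Oocyte libraries held between 7832458 and 23739871 counts in genes. The study's read table puts libraries under 80% mapped reads (the low class) or at 80% and more (the high class). All 8 double mutant FGOs were of the low class and all 8 Dnmt3L ADD/ADD FGOs of the high class, so that class and genotype cannot be told apart between these groups. Within the other groups the class of each library was matched by replicate number, and the labels do not say whether the read table numbers the libraries alike, so that values within a class rest on that match. By it, the wild-type FGOs were 8 low and 10 high, the Dnmt3a ADD/ADD FGOs 3 low and 5 high, and the MII oocytes 3 low and 7 high. The wild-type replicates 4, 5 and 6 and the double mutant replicates 4 and 7 stood apart. They lay more than 3 scaled median absolute deviations from the median FGO on the first principal component over genes that are no Zfp genes, an axis with 32.2% of the variance. Markers of other ovarian cells were low and moved with the groups. The 15 granulosa markers summed to 317 to 549 CPM in wild-type FGOs, to 271 to 370 and 298 to 443 CPM with the Dnmt3L or the Dnmt3a mutation alone, and to 289 to 325 CPM with both. Of 14 that could be tested 3, 4 and 8 were lower in these mutants and 0 higher. In MII oocytes (285 to 364 CPM, 2 markers at 0) 10 were lower and 1 higher. The 10 theca and stroma markers summed to 5.56 to 43.3 CPM in wild-type, at most 14.2 and 71.8 CPM in the single mutants, and at most 4.46 and 3.90 CPM in double mutant FGOs and MII oocytes, where 2 and 3 of them were at 0. The 8 endothelium and blood markers summed to 51.7 to 134 CPM over all FGOs. The part of these other cells' RNA in the results was not tested. The 12 oocyte markers summed to at least 7220 CPM in every FGO, and of 11 tested 6 and 8 were lower in the Dnmt3L and Dnmt3a ADD/ADD FGOs and 3 higher in the double mutant. In the libraries that stand apart they summed to 11781 to 12943 CPM, and in the other FGOs to 7220 to 11969.

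Zfp genes were a low to middling class of oocyte transcripts. Of the 211 members, 41 had a mean of 5 to 10 CPM in wild-type FGOs, 94 of 10 to 50, 45 of 50 to 100 and 31 of 100 CPM or more, with a median of 28.2 CPM. Divided by the length of the gene's merged exons, the median level was 6.33 CPM per kb, below the 9.73 CPM per kb of all 9955 genes of at least 5 CPM. The spread among wild-type FGOs, as SD over mean, had a median of 19.1% over the members (range 5.27 to 149%) and 15.3% over those 9955 genes. At the limit itself, Zfp850 (5.01 ± 1.36 CPM, range 2.87 to 8.0, SD, n = 18) and Zfp53 (5.06 ± 1.69, range 2.80 to 7.96) were just inside. Zfp273 (4.90 ± 1.61, range 1.87 to 9.08) and Zfp317 (4.84 ± 2.15, range 1.502 to 8.91) were just outside, so that single oocytes on both sides overlapped widely.

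The 10 highest members per kb in wild-type FGOs were mostly not KRAB genes. Zfp296, a factor known from pluripotent cells, came first with 126 CPM per kb and counts of 221, 249 and 342 CPM as the lowest, median and highest oocyte. Zfp655 followed with 112 CPM per kb (549, 634 and 689 CPM). Zfp592, a partner of the chromatin reader ZMYND8, had 100.1 CPM per kb and the most reads of the 10 (536, 786 and 861 CPM). The KRAB gene Zfp108 was close behind with 99.6 CPM per kb, and Zfp750, known as a factor of epidermal differentiation, had 89.0. Zfp957 (82.9), Zfp212 (74.6), Zfp616 (51.8), the splicing-related Zfp830 (45.5) and Zfp735 (44.2 CPM per kb) completed the list. Against wild type in the FGO mutants, 8 of these 10 were called in none. Zfp592 and Zfp830 were called lower in the double mutant, at log2 fold changes of -0.26 ± 0.08 (SE) and -0.31 ± 0.09. Within the low class neither was called (-0.03 and -0.15), and the call of Zfp592 was lost with any of 14 of the 42 libraries left out.

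**Figure D1:**
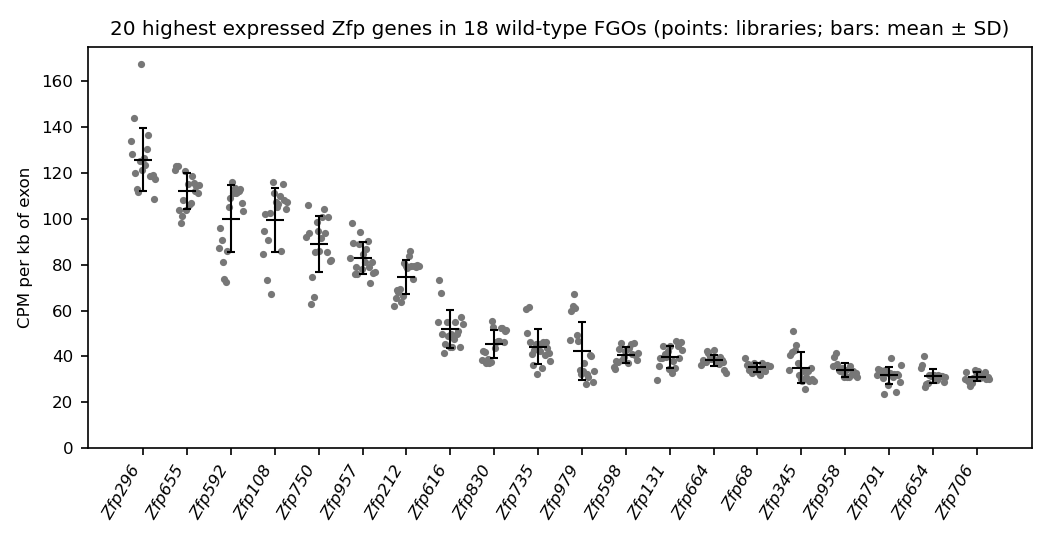
The 20 members with the highest level per kb of exon in the 18 wild-type FGOs, in CPM per kb on the y axis, with 1 point for each library and the mean and SD as bars. Zfp296 leads at a mean of 126 CPM per kb, Zfp655 follows at 112, and the 10th, Zfp735, is at 44.2.

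Members with and without a KRAB box differed in place and structure. A KRAB-like pattern was searched near the start of the longest reading frame of each protein-coding transcript. It was found in a transcript of 111 members and in none of 99, and Zfp939 had no protein-coding transcript in the annotation. Members called without the box are those with no match, and may include genes whose KRAB box differs from the pattern. Of the KRAB members, 79 lay in chromosome clusters, against 22 of the 99 without the box. KRAB members had a median of 12 C2H2 fingers (range 3 to 23), the others 7 (up to 36, in Zfp142). Median levels were 5.57 and 6.90 CPM per kb. For 173 members the RefSeq table gave a promoter window, from 250 bases before to 50 after the start. The median number of CG dinucleotides in it was 10 for 98 KRAB members and 21 for 74 others, against 7 for all 27025 genes of the table. The 9-letter motif ACTACAATT, the core of the site that the member ZFP143 is known to bind, was searched on both strands. It was present in 6 member promoters (3.47%) and in 0.433% of all promoters. GCGCATGCG, an NRF1 site, was in 4.62% against 1.81%, and AAGATGGCG, a YY1 site, in 2.31% against 1.49%. The CG counts include CGs inside the latter motifs. The 6 members with ACTACAATT were Zfp108, Zfp58, Zfp93, Zfp111, Zfp692 and Zfp933, of which all but Zfp108 and Zfp58 are named only for this motif. These are counts of letters in fixed windows and no measure of binding. The members were chosen as expressed in oocytes and the other genes of the promoter table were not. The part of expression in these differences was not tested. Of the members, 41 start within 1 kb of a gene that runs the other way, and 12 have over 25% of their transcript nearly identical to another gene, up to 100% in Zfp433 and 99.6% in Zfp960 against its neighbour Zfp97, so that their own levels are uncertain.

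Dnmt3L ADD/ADD FGOs had fewer reads on a set of members than all wild-type FGOs together. Most of these members were KRAB genes, though not among those called lower within the high class. Zfp758, Zfp978, Zfp944 and Zfp709 had the lowest p of those that fell, each by 0.34 to 0.47 on the log2 scale, and Zfp664, Zfp653 and Zfp335 were the 3 that rose. By edgeR's quasi-likelihood test with Benjamini-Hochberg adjustment over all genes (called at an adjusted p of 0.05), 3 members were higher and 25 lower. Over all 15726 genes tested, 3.07% were higher and 3.06% lower, and over the genes of at least 5 CPM, which share the members' choice by wild-type level, 4.55% and 3.57%. The median log2 fold change was -0.11 over the members and -0.03 over all genes. Over all libraries the decrease lay mostly with KRAB members, of which 0 rose and 18 fell (median -0.16). Of those without the box 3 rose and 7 fell (median -0.04). Within the high class, that of all Dnmt3L ADD/ADD FGOs, 6 members with the box and 8 without were lower. Over all libraries 91 of 111 KRAB members had an estimate under 0, against 61 of 99. Only Zfp12, a KRAB gene, passed the study's added limit of 2-fold, which 0.655% of all genes passed. Its place among the members rests on the wild-type oocytes, where it is higher. When members were chosen by a mean of at least 5 CPM over the libraries of both groups, 0 passed 2-fold.

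Zfp758 and Zfp944 are neighbours that start 53 bases apart in opposite directions on chromosome 17, at chr17:22361453-22377281 on the plus strand and chr17:22337989-22361400 on the minus strand (mm10). Both are KRAB genes, with 12 and 11 fingers. Their promoter windows, which overlap, are shown because both genes were among the 4 with the lowest p in Dnmt3L ADD/ADD FGOs. Methylation of these CGs was not examined here. The windows are those of RefSeq on GRCm38.p6, chr17:22361351-22361650 (minus strand) for Zfp944 and chr17:22361213-22361512 (plus strand) for Zfp758, 5′ to 3′, with each CG in capitals (22 and 20 CGs).
Zfp944: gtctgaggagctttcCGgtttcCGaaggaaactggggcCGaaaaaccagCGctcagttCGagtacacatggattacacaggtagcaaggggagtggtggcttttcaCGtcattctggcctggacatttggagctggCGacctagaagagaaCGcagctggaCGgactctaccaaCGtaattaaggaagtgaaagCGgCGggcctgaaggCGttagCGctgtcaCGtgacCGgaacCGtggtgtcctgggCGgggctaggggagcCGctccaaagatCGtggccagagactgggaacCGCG
Zfp758: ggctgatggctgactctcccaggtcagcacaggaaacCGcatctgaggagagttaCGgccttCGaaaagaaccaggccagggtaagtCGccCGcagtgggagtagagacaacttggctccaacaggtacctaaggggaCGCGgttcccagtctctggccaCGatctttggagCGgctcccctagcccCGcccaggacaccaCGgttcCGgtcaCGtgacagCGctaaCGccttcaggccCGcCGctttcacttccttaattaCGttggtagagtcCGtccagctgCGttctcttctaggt
Both windows, which share bases, hold more CGs than the median of 10 for KRAB members, and a link of the CGs to the lower levels was not tested.

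In wild-type FGOs Zfp758 had 12.0, 15.6 and 21.2 CPM as the lowest, median and highest oocyte, and in Dnmt3L ADD/ADD FGOs 8.70, 11.5 and 14.3. The median mutant oocyte lay below the lowest wild-type oocyte, and the log2 fold change was -0.47 ± 0.10 (SE, adjusted p = 0.00249, edgeR). Zfp944 had 45.6, 59.0 and 76.5 CPM in wild-type and 37.4, 46.9 and 55.7 in Dnmt3L ADD/ADD FGOs, a log2 fold change of -0.34 ± 0.08 (adjusted p = 0.00861). Within the high class of mapped reads Zfp758 kept its call (-0.42, adjusted p = 0.0195) and Zfp944 did not (-0.23, adjusted p = 0.0675).

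Zfp978, a short KRAB gene with 3 fingers on chromosome 4, fell from 15.1, 18.9 and 28.3 CPM to 11.8, 13.9 and 17.5, by 0.47 ± 0.10 on the log2 scale (adjusted p = 0.00364). Of its transcript 46.6% is nearly identical to the neighbouring member Zfp979, so that the split of reads between them is uncertain. Zfp709, a KRAB gene outside clusters, had 35.2, 53.3 and 86.4 CPM in wild-type and 36.0, 39.4 and 45.7 CPM in Dnmt3L ADD/ADD FGOs, a tighter group inside the lower part of the wild-type range (-0.43 ± 0.10, adjusted p = 0.00935). Its call was lost within the high class (-0.18, adjusted p = 0.177). Zfp12 had 2.12, 4.35 and 13.1 CPM in wild-type and 1.68, 2.26 and 3.65 CPM in Dnmt3L ADD/ADD FGOs (-1.18 ± 0.31, adjusted p = 0.0164), and -0.87 within the high class.

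The genes that rose in Dnmt3L ADD/ADD FGOs carry no KRAB box. Zfp664 went from 258, 299 and 334 CPM in wild-type to 301, 326 and 355 CPM, a log2 fold change of 0.15 ± 0.04 (adjusted p = 0.0183), and the call was lost without Dnmt3L ADD/ADD replicate 1 (adjusted p = 0.0595). Zfp653 rose by 0.24 ± 0.07 (adjusted p = 0.0206), a call lost without replicate 3 or 6 of that group (adjusted p up to 0.0601). Zfp335, a partner of an H3K4 methyltransferase complex, rose by 0.30 ± 0.09 (adjusted p = 0.0384). Its call was lost with any of 7 libraries left out, and 28.3% of its exons overlap another gene, whose reads cannot be told apart from its own.

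With high-class libraries only, 14 members were lower (3.45% of all genes), 6 of the 111 with a KRAB box (median log2 fold change -0.10) and 8 of the 99 without (median -0.02). Without the libraries that stand apart 16 were lower (2.46% of all genes), 12 of them with a KRAB box and 4 without. Leaving out Dnmt3L ADD/ADD replicate 2, 3, 4 or 7 lowered the total of 28 to 18, 16, 13 and 13. The choice by wild-type level favours genes that were high in the wild-type libraries, most of all near the limit. Among the 170 members of at least 10 CPM, 3 were higher and 22 lower, where 3.07% and 3.06% of all genes were called. This limit is also set on the wild-type mean, so that the count does not remove that choice.

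Dnmt3a ADD/ADD FGOs had the larger number of members called among the single mutants, again mostly lower KRAB genes. Zfp978, Zfp40, Zfp944 and Zfp760 had the lowest p of those that fell, and Zfp653, Zfp143, Zfp184 and Zfp341 of those that rose. By edgeR 15 members were higher and 39 lower, where 8.06% and 7.61% of all genes and 11.7% and 8.49% of the genes of at least 5 CPM were called. The median was -0.08 over the members and -0.03 over all genes. Of the KRAB members 4 rose and 30 fell (median -0.15), and of the others 11 rose and 9 fell (median -0.03). Past 2-fold were 5 members, all lower, against 2.05% of all genes. When members were chosen by a mean of at least 5 CPM over the libraries of both groups, 3 were.

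Zfp40 was the single member whose Dnmt3a ADD/ADD FGOs did not overlap the wild type, where the groups of 0.439% of all genes did not overlap. It had 7.65, 8.91 and 21.8 CPM in wild-type FGOs and 1.80, 5.04 and 7.46 CPM in Dnmt3a ADD/ADD FGOs, a log2 fold change of -1.11 ± 0.20 (adjusted p = 0.000151). The gene, with a KRAB box and 16 fingers, lies at chr17:23173869-23193252. The value was -1.50 within the low class, -0.79 within the high class and -0.90 without the libraries that stand apart, called each time. In Dnmt3L ADD/ADD FGOs it had 5.11, 5.94 and 9.36 CPM (-0.70 ± 0.19, adjusted p = 0.0233), a call lost without replicate 3 or 4 of that group (adjusted p up to 0.0531) and without the libraries that stand apart (-0.49, adjusted p = 0.0546).

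Zfp978 had 9.08, 11.6 and 16.3 CPM in Dnmt3a ADD/ADD FGOs and fell by 0.73 ± 0.10 (adjusted p = 4.66e-06), the lowest p of any member in this comparison, with calls in both classes. Zfp944 had 35.7, 43.5 and 51.7 CPM and fell by 0.44 ± 0.08 (adjusted p = 0.000228). Within the low class its value was -0.67 and called, and within the high class -0.28 with an adjusted p of 0.053. Zfp760, a KRAB gene with 16 fingers in the same chromosome 17 cluster, went from 9.06, 13.1 and 19.7 CPM to 5.69, 7.83 and 10.8 (-0.70 ± 0.13, adjusted p = 0.000326), and was called in both classes.

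Zfp653, which shares a chromosome 9 cluster with Zfp809, rose from 46.6, 65.2 and 73.2 CPM to 66.4, 77.3 and 89.7 in Dnmt3a ADD/ADD FGOs (0.34 ± 0.06, adjusted p = 0.000372). Zfp143, a transcription factor that binds promoters and chromatin loop anchors, rose from 57.8, 72.3 and 84.1 to 74.6, 80.5 and 100.1 CPM (0.25 ± 0.06, adjusted p = 0.00209). Zfp184 rose by 0.25 ± 0.06 and Zfp341 by 0.36 ± 0.09. All of these 4 increases were called within the low class and none within the high class, where the values were 0.16 to 0.26.

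The members past 2-fold in Dnmt3a ADD/ADD FGOs besides Zfp40 were near the limit of 5 CPM or very uneven among wild-type oocytes. Zfp12 fell by 1.12 ± 0.30 (adjusted p = 0.00962). Zfp707 ran from 2.47 to 68.8 CPM around a median of 6.77 in wild-type FGOs and was at 1.14, 3.90 and 18.4 CPM in Dnmt3a ADD/ADD FGOs (-1.59 ± 0.56, adjusted p = 0.0481). Zfp395 ran from 1.98 to 50.3 CPM around 3.82 and was at 0.759, 2.495 and 4.36 (-1.74 ± 0.61, adjusted p = 0.0447). Zfp953 fell by 1.13 ± 0.37 (adjusted p = 0.0313). Without the libraries that stand apart these 3 uneven genes had values of -0.59, -0.40 and -0.75 and were not called, and 0 members passed 2-fold. Leaving out 1 library ended the call of Zfp707 with 26 of the 42 libraries, of Zfp395 with 10 and of Zfp953 with 7.

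**Figure D2:**
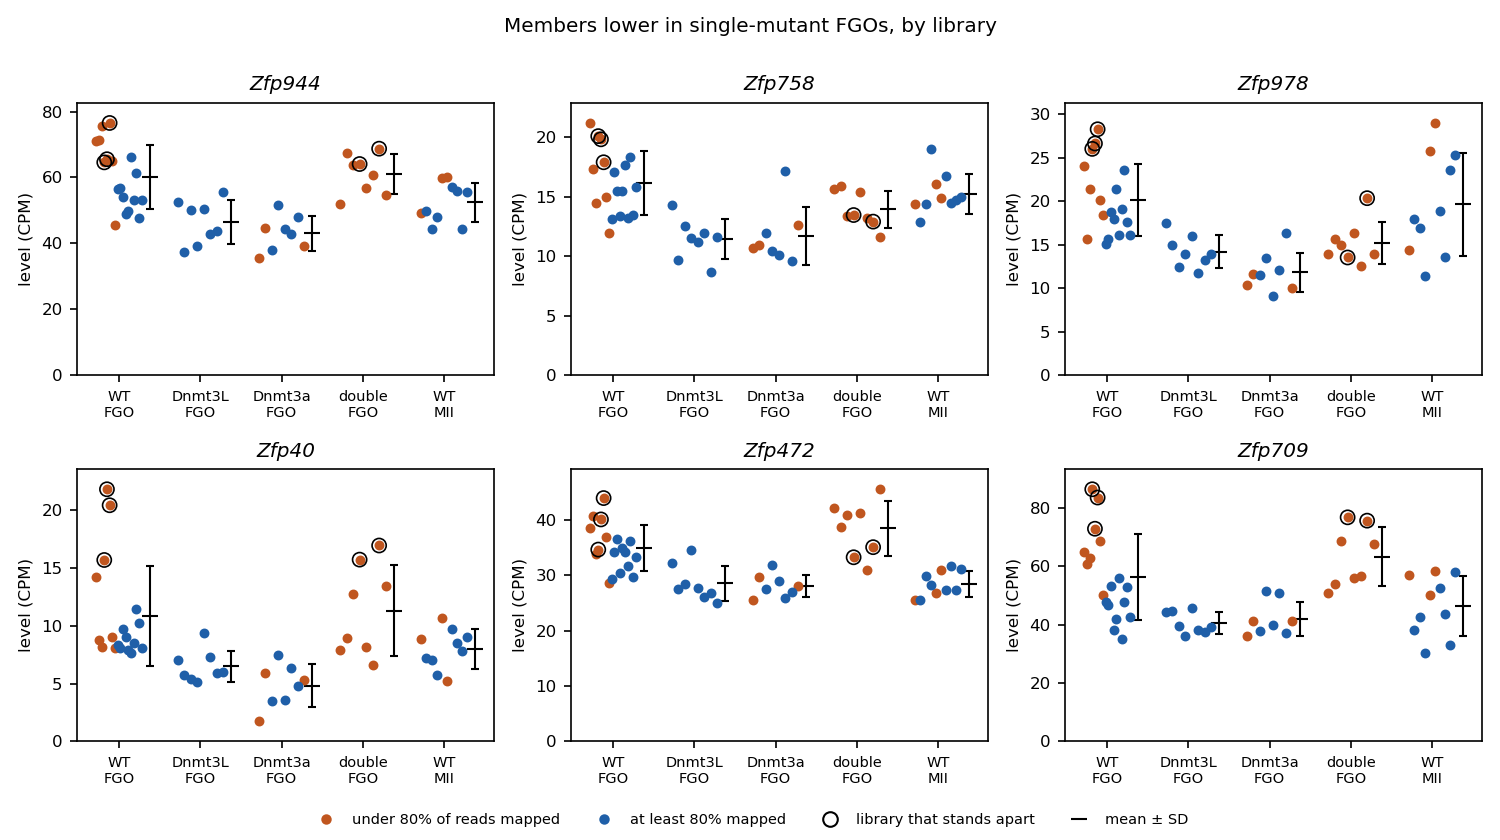
CPM of 6 members in each oocyte library by group, with the mean and SD as bars; points are coloured by the class of mapped reads and ringed where the library stands apart. For Zfp40 the Dnmt3a ADD/ADD points end at 7.46 CPM, below the lowest wild-type oocyte at 7.65, while the double mutant points reach 16.95.

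Fewer members were lower within either class than the 39 over all libraries. Fewer libraries entered these fits, and the part of library number was not tested. With low-class libraries only (8 wild-type and 3 Dnmt3a ADD/ADD FGOs) 23 members were lower, against 3.03% of all genes. KRAB members made up 21 of them, and 11 members without the box rose. With high-class libraries only (10 and 5) 9 members were lower, against 3.95% of all genes, 6 with a KRAB box and 3 without. Without the libraries that stand apart 28 were lower (5.88% of all genes), 22 with and 6 without the box. Among members of at least 10 CPM in wild-type FGOs, a choice by the same libraries, 15 were higher and 27 lower. Over all genes 8.06% and 7.61% were.

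In double mutant FGOs, increases and decreases of members were closer in number. Zfp113, Zfp664, Zfp738 and Zfp319 had the lowest p of the members that rose, and Zfp512, Zfp978, Zfp41 and Zfp260 those that fell. By edgeR 13 members were higher and 9 lower, against 5.51% and 6.74% of all genes and 7.91% and 7.81% of the genes of at least 5 CPM. The median over the members was 0.02, and -0.01 over all genes. KRAB members were 5 higher and 2 lower, and the others 8 and 7. No member passed 2-fold by edgeR or DESeq2, and 0 did at an unadjusted p of 0.05, where 1.65% of all genes were called past 2-fold. At an unadjusted p of 0.05 with any fold, 61 members passed.

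Zfp512 had 15.3, 20.9 and 34.6 CPM in wild-type and 11.1, 12.8 and 17.2 CPM in double mutant FGOs, the largest called decrease (-0.70 ± 0.13, adjusted p = 0.000844). Within the low class its value was -0.53 and not called. Zfp978 had 12.6, 14.5 and 20.3 CPM (-0.42 ± 0.10, adjusted p = 0.00659) and was called lower in all 3 mutant groups, also within the low class (-0.57). Zfp260 fell by 0.54 ± 0.14 (adjusted p = 0.00977, -0.69 and called within the low class), and Zfp41, of the chromosome 15 cluster, by 0.64 ± 0.16 (adjusted p = 0.00855, -0.43 and not called there). Among the genes that rose, Zfp113 went from 11.2, 15.98 and 27.6 to 17.4, 23.9 and 27.9 CPM (0.45 ± 0.10, adjusted p = 0.00478), and Zfp664 to 313, 343 and 357 CPM (0.15 ± 0.04, adjusted p = 0.0125). Zfp664 was thus called higher in each mutant group, with 0.17 ± 0.04 in Dnmt3a ADD/ADD FGOs (adjusted p = 0.003). Zfp738 (0.39 ± 0.11, adjusted p = 0.0229) and Zfp319 (0.31 ± 0.10, adjusted p = 0.0271) lost their calls without double mutant replicate 4 or 7, and Zfp738 also without replicate 8. None of the 4 increases was called within the low class, where the values were 0.31 for Zfp113, 0.14 for Zfp664, 0.32 for Zfp738 and 0.32 for Zfp319.

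The double mutant count moved by over 1.5 times with any of 13 of its 26 libraries left out. Within the low class, 3 members were called, all lower, against 1.04% of all genes. Without the libraries that stand apart 27 were higher and 15 lower, against 9.99% and 9.51% of all genes, and 4 passed 2-fold. Leaving out wild-type replicate 4, 5 or 6 raised the total of 22 to 34, 42 and 44, and leaving out double mutant replicate 7 lowered it to 8. Double mutant replicates 3, 4, 5 and 8 and wild-type replicates 9, 12, 13, 16 and 18 lowered it to between 9 and 14.

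Set directly against the single mutants, with no wild-type library in the contrast, the double mutant, all of the low class, had higher levels of many members. Against Dnmt3a ADD/ADD FGOs 53 members were higher and 20 lower, where 16% and 14.9% of all genes were called. KRAB members were 31 higher and 4 lower, and the others 22 and 16. Against Dnmt3L ADD/ADD FGOs 51 were higher and 11 lower (12.8% and 11.4% of all genes), with 33 and 1 of the KRAB members and 18 and 10 of the others. Within the low class, 8 double mutant against 3 Dnmt3a ADD/ADD FGOs gave 21 higher and 7 lower (4.61% and 6.43% of all genes). Of these, 16 higher and 1 lower carried a KRAB box. With class as a covariate 12 members were higher and 3 lower against Dnmt3a ADD/ADD FGOs, where the share of all genes is not given here. In the same fit 0 members were called against Dnmt3L ADD/ADD FGOs by edgeR, where 1.18% of all genes were, and 32 passed an unadjusted p of 0.05. The 2 single mutants were not told apart by any member in edgeR, with 11 of 211 at an unadjusted p of 0.05 and 1 called by DESeq2. Over all genes 0.0127% were called between them.

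The difference between the double mutant and the sum of both single effects was tested in the same fit. It was above 0 for 73 members and below 0 for 27, against 19.3% and 16.3% of all genes. KRAB members made up 52 of the 73 and 6 of the 27. The 5 lowest p were those of Zfp472, Zfp944, Zfp40, Zfp709 and Zfp930, all KRAB genes, and in each the double mutant was near or above the wild-type level while both single mutants fell. Zfp472, on chromosome 17, had a median of 39.8 CPM in double mutant FGOs and 34.5 in wild-type, against 27.6 and 27.8 CPM with the Dnmt3L and the Dnmt3a mutation alone, and a deviation from the sum of 0.66 ± 0.11 on the log2 scale (adjusted p = 8.82e-06). For Zfp944 it was 0.79 ± 0.13, and its double mutant FGOs had 51.8, 62.2 and 68.7 CPM. For Zfp40 it was 1.86 ± 0.30, with 6.62, 10.9 and 16.95 CPM in double mutant FGOs. Zfp930 in the chromosome 8 cluster had 0.74 ± 0.12 and Zfp709 0.96 ± 0.16. With class as a covariate all of these 5 kept the call, and over the members 28 were above and 6 below 0 (6.04% and 8.11% of all genes). The test uses the same wild-type libraries as the comparisons above and is not independent of them.

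Summed over the members, the KRAB genes moved with class inside the wild type too. The 111 KRAB members together had 4940 ± 379 CPM in wild-type FGOs (SD, n = 18, range 4448 to 5608). With the Dnmt3L mutation alone they had 4494 ± 177 CPM and with the Dnmt3a mutation alone 4568 ± 206, against 5082 ± 297 in double mutant FGOs (n = 8 each) and 4680 ± 143 CPM in MII oocytes (n = 10). The wild-type FGOs of the low class had 5275 ± 308 CPM and those of the high class 4671 ± 132, a gap larger than that from wild type to either single mutant. The 5 libraries that stand apart had 5341 to 5608 CPM and the other 37 FGOs 4171 to 5347. The 99 members without the box stayed closer together, with 7685 ± 190, 7638 ± 130, 7700 ± 150, 7755 ± 215 and 7884 ± 151 CPM in the same order of groups, and in the libraries that stand apart they had 7646 to 8117 CPM against 7313 to 7984 in the others. All members together took 12682 ± 385 CPM in wild-type FGOs.

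**Figure D3:**
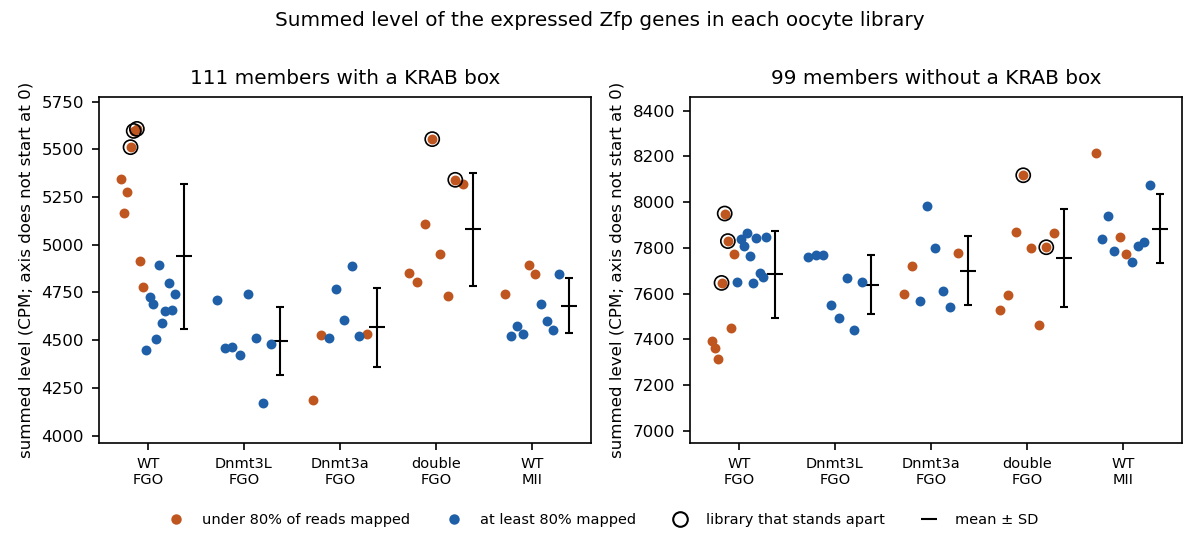
Summed CPM of the KRAB members and of the members without a KRAB box in each oocyte library by group, with mean and SD as bars, on axes that do not start at 0. Wild-type FGOs of the low class average 5275 CPM of KRAB members and those of the high class 4671, and the 5 ringed libraries that stand apart lie at 5341 CPM of KRAB members and above.

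Between the classes of wild-type FGOs, 24 members were higher in the high class and 42 lower, where 11.2% and 14.2% of all genes were called. Of the KRAB members 6 were higher and 29 lower, and of the others 18 and 13. The class of mapped reads thus moved with KRAB members. A fit with class as a covariate gave 1 increase and 8 decreases with the Dnmt3L mutation alone (2.43% and 1.84% of all genes). In Dnmt3a ADD/ADD FGOs 16 were higher and 32 lower (9.11% and 7.1% of all genes), and in the double mutant 1 and 3 (0.852% and 1.76%).

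By chromosome, 2 clusters held more of the called decreases than any other, 9 of 25 in Dnmt3L ADD/ADD FGOs and 15 of 39 in Dnmt3a ADD/ADD FGOs. Over all genes 3.06%, 7.61% and 6.74% were lower in Dnmt3L, Dnmt3a and double mutant FGOs, and 14.2% in the high class of wild-type FGOs. The cluster at chr17:21008941-23599487 counts 23 Zfp symbols and 15 members, all with a KRAB box, among them Zfp944, Zfp758, Zfp40, Zfp760 and Zfp51. Its members summed to 483 ± 64 CPM in wild-type and 488 ± 17 in double mutant FGOs, against 406 ± 41 with the Dnmt3L and 388 ± 24 with the Dnmt3a mutation alone, and 429 ± 28 CPM in MII oocytes. In Dnmt3L ADD/ADD FGOs 6 of the 15 fell and 0 rose, and in Dnmt3a ADD/ADD FGOs 10 fell and 0 rose. In the fit with class as a covariate 2 and 10 were lower. In the double mutant 1 rose, Zfp51 (0.21 ± 0.07, adjusted p = 0.0373), a call lost with any of 10 libraries left out. The medians were -0.28, -0.43 and -0.07. In wild-type FGOs 9 of the 15 were lower in the high class, and the sum was 538 ± 50 CPM in the low class and 440 ± 33 in the high class.

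The cluster at chr4:145510759-147848366 holds 18 symbols and 7 members, all with a KRAB box, led by Zfp979 with 42.5 CPM per kb. The 7 summed to 321 ± 76 CPM in wild-type and 296 ± 33 in double mutant FGOs, and to 251 ± 24 with the Dnmt3L and 229 ± 33 with the Dnmt3a mutation alone. In the order Dnmt3L, Dnmt3a and double mutant 3, 5 and 1 of them were lower and 0 higher, and 5 were lower in the high class of wild-type FGOs, where the sum was 265 ± 24 against 390 ± 58 CPM. In the fit with class as a covariate these counts were 1, 5 and 1. Zfp979 itself went from 114, 159 and 276 CPM in wild-type to 80.9, 123 and 165 CPM in Dnmt3a ADD/ADD FGOs (-0.45 ± 0.13, adjusted p = 0.0149), a call lost within the high class (-0.05) and without the libraries that stand apart (adjusted p = 0.0518).

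On chromosome 15, in the cluster of Zfp707, 3 of 4 members fell in Dnmt3a ADD/ADD FGOs (1 with class as a covariate), and in the second chromosome 17 cluster, led by Zfp472, 3 of 7 did (also 3 with the covariate). The 4 of chromosome 15 summed to 44.9 ± 27.6 CPM in wild-type and 25.3 ± 9.18 CPM in Dnmt3a ADD/ADD FGOs, and the 7 of chromosome 17 to 146 ± 19 and 123 ± 11 CPM. The chromosome 13 cluster (8 members, among them Zfp58, Zfp738 and Zfp953) had 188 ± 26 CPM in wild-type and 212 ± 17 CPM in double mutant FGOs, where 2 members rose (0 with the covariate). The Zfp108 cluster on chromosome 7 had the highest sum, with 713 ± 69 CPM in wild-type FGOs and 805 ± 39 CPM in MII oocytes, where 3 of its members rose. Its 10 members had 1 decrease and 0 increases in each single mutant, with medians of 0.07 and 0.11. The 7 members of the chromosome 6 cluster of Zfp212 had no call in either single mutant by edgeR, with sums of 453 ± 39 CPM in wild-type FGOs and 495 ± 28 in MII oocytes. In all, 18 of the 101 cluster members (17.8%) and 7 of the 110 others (6.36%) fell in Dnmt3L ADD/ADD FGOs, where 3.06% of all genes did. In Dnmt3a ADD/ADD FGOs 30 (29.7%) and 9 (8.18%) fell. There 7.61% of all genes and 8.49% of those of at least 5 CPM fell, so that members outside clusters were near these shares. Over all genes 5.51% rose in the double mutant and 16.5% in MII oocytes.

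**Figure D4:**
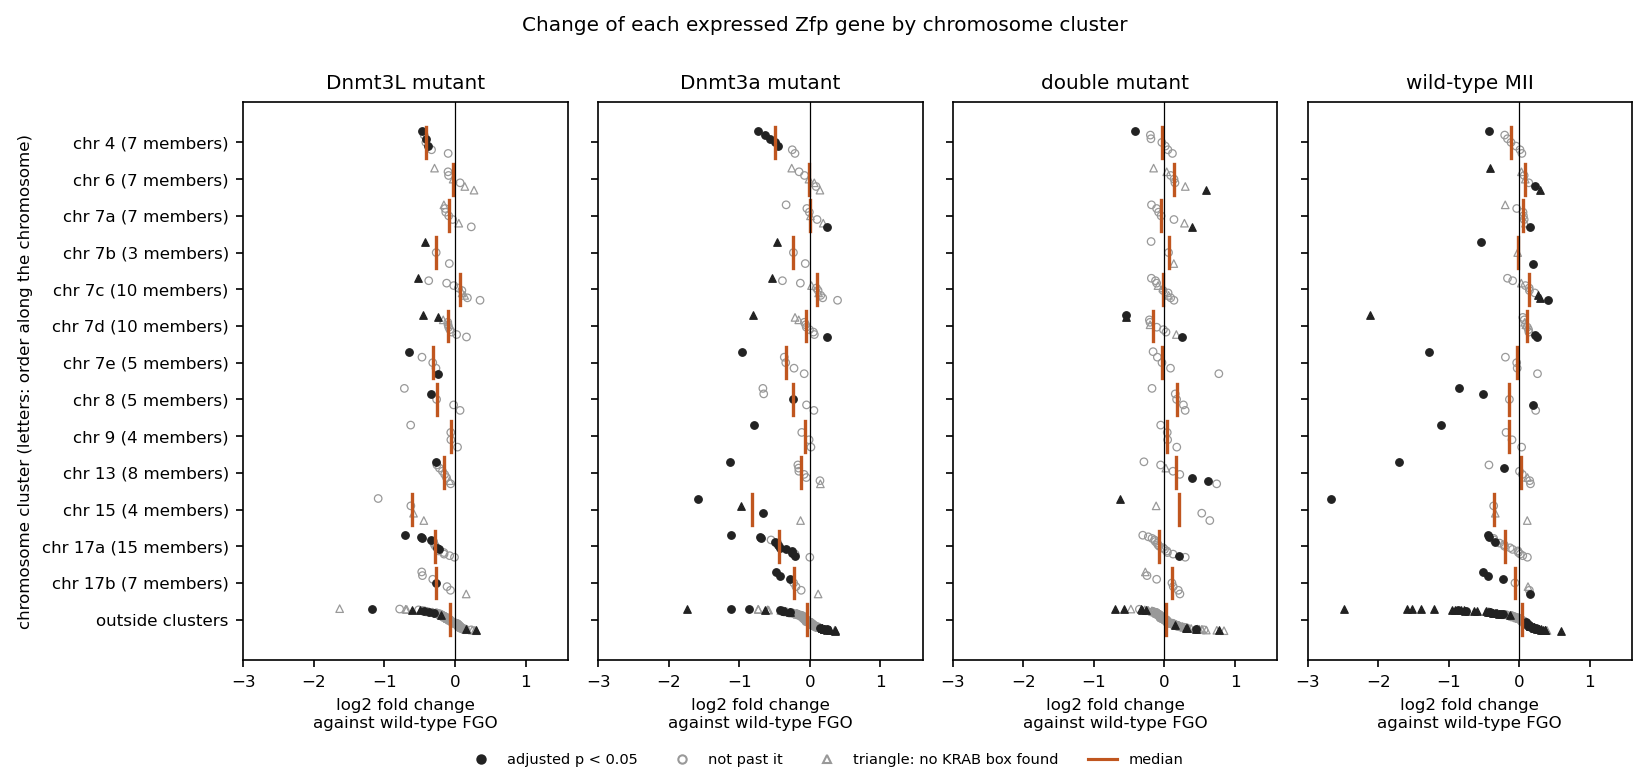
Log2 fold change of each member against wild-type FGOs, in 4 panels for the mutants and MII oocytes, with members grouped by chromosome cluster (at least 3 members, letters giving their order along a chromosome); filled symbols have an adjusted p under 0.05 and triangles have no KRAB box. The chromosome 17 cluster of 15 members (17a) shows 6 and 10 filled points below 0 in the single mutants, and 1 filled point, above 0, in the double mutant.

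Between FGO and MII oocytes more members were called than in any mutant, in both directions, and so were more of all genes. Fully grown oocytes are known to have largely shut down transcription, though not all to the same degree, and stored transcripts are kept or degraded as the oocyte matures. CPM gives a gene's share of the library and not its amount per oocyte. By edgeR 37 members (17.5%) were higher and 46 (21.8%) lower in MII oocytes, near the shares of all genes. Over all genes 16.5% were higher and 22.6% lower, and over the genes of at least 5 CPM 24.4% and 20.2%. The median was 0.03 over the members and -0.05 over all 15784 genes of this fit. KRAB members had 11 higher and 22 lower, and the others 26 and 24. Past 2-fold were 10 members, all lower, where 9.2% of all genes passed. The number called was 38 within the low class (19.1% of all genes), 45 within the high class (22.7%) and 71 without the libraries that stand apart (31.0%).

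The groups did not overlap for 2 members, where 2.43% of all genes did not overlap. Zfp296, the highest FGO member per kb, had 221, 249 and 342 CPM in wild-type FGOs and 169, 184 and 208 in MII oocytes, a log2 fold change of -0.42 ± 0.06 (adjusted p = 2.88e-07). Zfp146, a gene of 10 fingers and no KRAB box, had 3.07, 5.39 and 19.8 CPM and 0.345, 1.65 and 2.97 CPM (-2.11 ± 0.29, adjusted p = 8.6e-08). Both were called lower in each class. Zfp473, known for its part in histone transcript processing, fell from 27.7, 85.6 and 137 CPM to 26.8, 35.7 and 49.0 (-1.21 ± 0.18, adjusted p = 4.97e-07), so that MII oocytes lay at the low end of an uneven FGO group. Zfp51 of the chromosome 17 cluster went from 40.1, 50.3 and 66.9 to 31.7, 37.3 and 41.99 CPM (-0.42 ± 0.06, adjusted p = 5.4e-07).

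Among the members that rose in MII oocytes, several had high FGO levels. Zfp142 went from 96.6, 118 and 138 to 130, 145 and 159 CPM (0.36 ± 0.06, adjusted p = 1.81e-06), with 28.2% of its transcript nearly identical to another gene. Zfp108 went from 183, 285 and 315 to 303, 348 and 382 CPM (0.41 ± 0.07, adjusted p = 8.88e-06), and Zfp706 from 120, 136 and 150 to 146, 161 and 169 CPM (0.28 ± 0.05, adjusted p = 7.35e-06). Zfp691, a low gene, went from 5.35, 8.49 and 11.4 to 9.01, 12.6 and 13.8 CPM (0.59 ± 0.10, adjusted p = 4.18e-06), the largest increase of these 4. All 4 were called in both classes. Zfp592 reached 847, 897 and 944 CPM (0.34 ± 0.07, adjusted p = 9.11e-05), and Zfp212 and Zfp750 rose by 0.29 ± 0.05 and 0.37 ± 0.08. Zfp655 was at 619, 651 and 672 CPM, inside its FGO range, with an adjusted p of 0.0584.

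**Figure D5:**
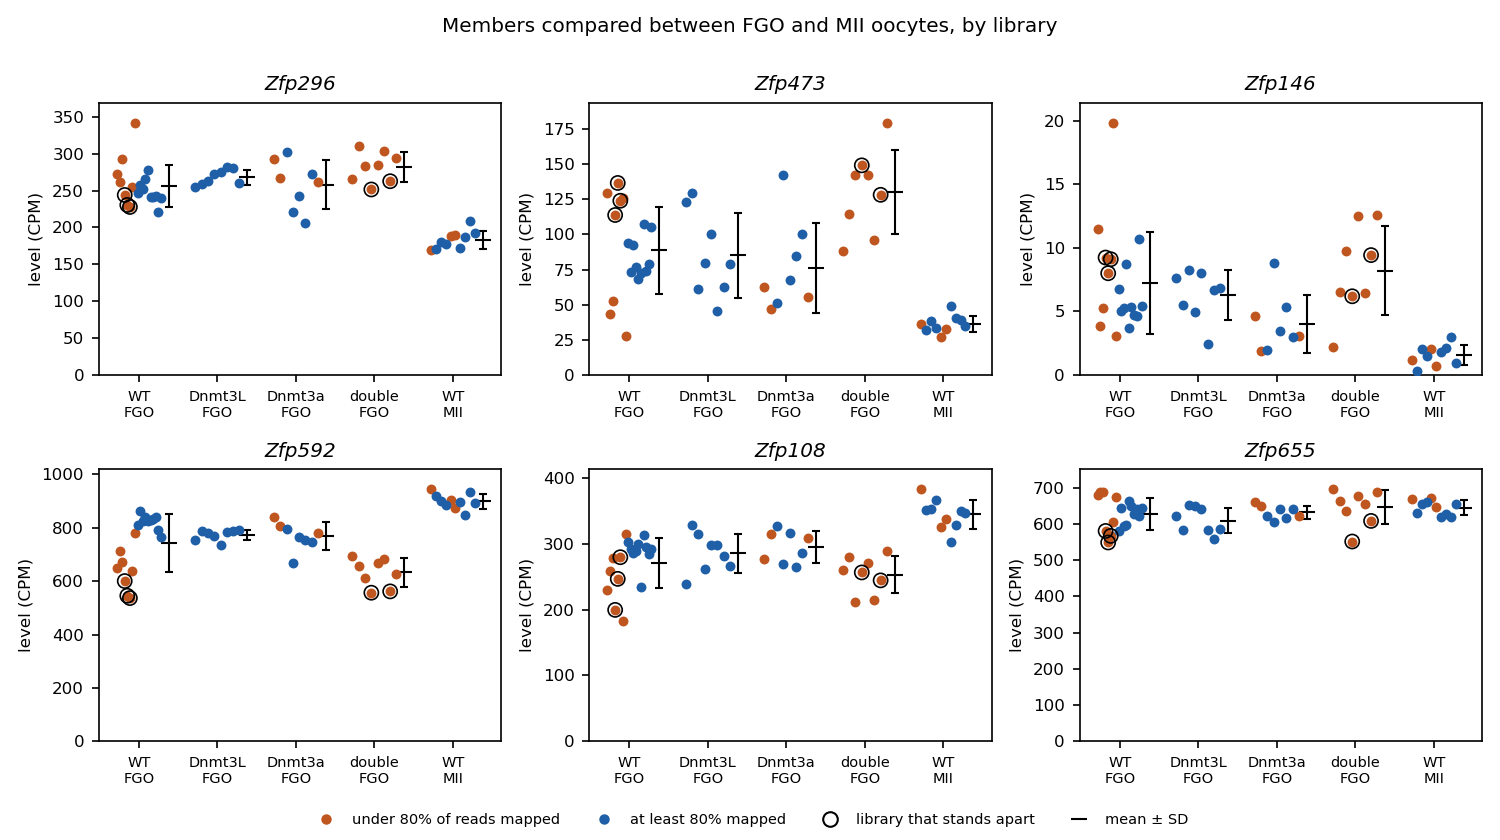
CPM of 6 members in each oocyte library by group, drawn as in the plot of the mutant members. The MII points of Zfp296 (169 to 208 CPM) and Zfp146 (0.345 to 2.97) lie below all wild-type FGOs, and those of Zfp655 (619 to 672) lie inside the FGO range.

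Members known for roles outside KRAB repression are given next, with the shares of all genes called beside the counts of each list. Of the RNA-binding and ribosome group, 7 of 9 listed genes were members, namely Zfp106, Zfp207, Zfp326, Zfp346, Zfp598, Zfp638 and Zfp830. Of 8 listed genes that could be tested, 2 rose and 3 fell in MII oocytes (all genes 16.5% and 22.6%). In the mutants 1 of the 7 members was called, Zfp830, lower in the double mutant (adjusted p = 0.0148) and not called within the low class (-0.15). In MII oocytes Zfp598, the ubiquitin ligase that senses collided ribosomes, rose by 0.23 ± 0.05 (adjusted p = 0.000209) and Zfp106 by 0.19 ± 0.05 (adjusted p = 0.00135). Zfp346, a protein that binds double-stranded RNA, fell by 1.52 on the log2 scale (adjusted p = 3.62e-05), from a median of 5.89 to 1.97 CPM, and Zfp326 by 0.91 ± 0.19 (adjusted p = 0.000218). Zfp638, with medians of 299 and 291 CPM, and Zfp207, a spindle and splicing factor with 153 and 152 CPM, had adjusted p of 0.378 and 0.467.

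Of 15 listed chromatin regulators 13 were members. Over all 15, 1 rose and 1 fell in Dnmt3L ADD/ADD FGOs, 3 and 1 in Dnmt3a ADD/ADD FGOs, 0 and 0 in the double mutant and 3 and 6 in MII oocytes. Over all genes the shares higher and lower were 3.07% and 3.06%, 8.06% and 7.61%, 5.51% and 6.74%, and 16.5% and 22.6% in the same order. Besides Zfp143 and Zfp335, Zfp451, a SUMO ligase, rose in Dnmt3a ADD/ADD FGOs (0.18 ± 0.05, adjusted p = 0.0154), and none of the 13 was called in the double mutant, the nearest being Zfp217 with 0.34 ± 0.13 (adjusted p = 0.0634). In MII oocytes Zfp292 fell by 1.40 ± 0.24 (adjusted p = 1.02e-05), Zfp281 by 0.77 ± 0.20 (adjusted p = 0.00214), Zfp644, a partner of the H3K9 methyltransferases G9a and GLP, by 0.59 ± 0.14 (adjusted p = 0.000986) and Zfp217 by 0.35 ± 0.12 (adjusted p = 0.0141), a call lost within each class and without the libraries that stand apart. Zfp281 was not called within either class (-0.47 in the high and -0.997 in the low class), and was called without the libraries that stand apart (-0.47, adjusted p = 0.017). Zfp148 rose by 0.15 ± 0.04 and Zfp335 by 0.31 ± 0.08. Zfp451 was also called higher (0.12, adjusted p = 0.0432), a call lost with any of 10 libraries left out. Zfp410, known as an activator of Chd4, had medians of 12.2 CPM in FGOs and 11.4 in MII oocytes (adjusted p = 0.542). Zfp131, Zfp277, Zfp384 and Zfp91 were called in none of the 4 comparisons with wild-type FGOs.

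Of 5 KRAB genes listed as silencers of retroelements or of placental transcripts, 3 were members. Zfp809, known for silencing murine leukaemia virus type elements, had 4.64, 6.91 and 12.0 CPM in wild-type and 2.26, 4.70 and 5.71 CPM in Dnmt3a ADD/ADD FGOs (-0.73 ± 0.17, adjusted p = 0.00352), and was not called within either class (-0.77 and -0.67). Zfp568, which represses a placental Igf2 transcript, had 81.4, 97.4 and 143 CPM in wild-type and 93.4, 116 and 153 CPM in double mutant FGOs (0.25 ± 0.08, adjusted p = 0.0343). Its call was lost without double mutant replicate 3, 4, 7 or 8. Zfp932 had medians of 37.7 and 44.0 CPM in the same groups and was called in no comparison with wild-type FGOs.

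The corepressors that KRAB proteins use were a list of 18 genes. In Dnmt3L ADD/ADD FGOs 1 rose (Cbx5) and 0 fell, in Dnmt3a ADD/ADD FGOs 1 rose (Smarcad1) and 3 fell (Cbx1, Hdac1 and Hdac2), and in double mutant FGOs 1 rose (Morc3) and 2 fell (Setdb1 and Chd4). In MII oocytes 7 rose and 5 fell. The shares of all genes are those given above for the chromatin regulators. With class as a covariate the calls of Cbx5 (adjusted p = 0.125), of Hdac2 (0.0508) and of all 3 genes in the double mutant were lost (Morc3 0.155, Setdb1 0.251 and Chd4 0.685), as was 1 of the 7 increases in MII oocytes, Rbbp7 (0.0544). The same edgeR fit gained calls of Atf7ip in Dnmt3L ADD/ADD FGOs (adjusted p = 0.00999) and Hdac2 in MII oocytes (0.0466). It also gained Setdb1 (0.0498) and Chd4 (0.0285) in Dnmt3a ADD/ADD FGOs. Without the covariate these 2 had log2 fold changes of 0.16 and 0.22 there, while both fell in the double mutant. Trim28 had 231 ± 25 CPM in wild-type FGOs (n = 18) and 201 ± 13 in MII oocytes (n = 10), a log2 fold change of -0.13 ± 0.04 (adjusted p = 0.00645), and was called in no mutant. Setdb1 went from 394 ± 30 to 468 ± 22 CPM (0.31 ± 0.05, adjusted p = 1.46e-06) in MII oocytes and to 348 ± 20 CPM in double mutant FGOs (-0.20 ± 0.06, adjusted p = 0.0217).

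Across the 4 comparisons with wild-type FGOs, 84 of the 211 members were called in none, and 134 in no mutant. The comparisons share the same 18 wild-type FGOs, so that a gene called in several of them is no repeated observation.

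The allelic counts of the 3 embryos from double mutant oocytes listed 203 members, of which 152 had at least 10 allelic counts in each embryo. The embryos are bulk samples, in which fewer cells of a type and less RNA per cell cannot be told apart. The total allelic count was 7534598, 8547786 and 6998944. The median maternal share over the members was 50.7%, 56.3% and 50.4%, beside 51.3%, 58.1% and 51.3% over 10192 autosomal genes. In embryo 2 the 18 members on chromosomes 6 and 9 had a median share of 71.4%, while the other autosomal members had 54.8%. By edgeR with the embryo as a block, 0 of the 152 members were called, 18 had an unadjusted p under 0.05, and 0.555% of all 10805 genes were called. Zfp330, chosen after its values were seen, had the lowest p, with maternal shares of 11.4%, 7.69% and 4.17% (adjusted p = 0.131), on 4, 1 and 1 maternal against 31, 12 and 23 paternal counts. Zfp568 had 56.9%, 61.0% and 60.1% maternal counts (adjusted p = 0.153), Zfp809 37.9%, 69.0% and 39.1%, and Zfp106 was listed at 0 for both alleles.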

How the data were processed

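Single-oocyte RNA-seq libraries of 52 mouse oocytes and allelic counts of 3 embryos were used. The authors aligned reads to mm10 with STAR and deposited whole-number read counts per gene, 1 library per file. The strand setting and the treatment of multi-mapping reads are not given in the sources used here, so reads of overlapping or nearly identical genes cannot be told apart. Groups came from the labels. The members and all lists were chosen with earlier results of these data known.

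Counts were tested with edgeR 4.0.16 (R 4.3.3) by the quasi-likelihood test, with TMM scaling, genes kept by filterByExpr at a minimum count of 10, and Benjamini-Hochberg adjustment over all genes (called at 0.05). The past 2-fold limit was a log2 fold change beyond 1, as in the study. The 42 FGOs entered 1 fit (15726 genes), and all 52 oocytes another for MII (15784 genes). Allelic counts were tested with the embryo as a block, over 10805 genes with at least 10 allelic counts in each embryo, and 8 other columns of those tables were not used. CPM was the count over the library's total count, with no scaling, and levels per kb used the length in the files. Totals per group ran from 11510790 to 17216121 in wild-type, 7832458 to 23739871 in Dnmt3L ADD/ADD, 9250950 to 18909786 in Dnmt3a ADD/ADD, 12090966 to 16328967 in double mutant FGOs and 10383381 to 15198715 in MII oocytes. No libraries agreed within sampling noise (lowest chi-square per degree of freedom 5.39). In simulated data with 200 genes changed, the double mutant comparison found 85 of those changed by 0.5 (log2) and 154 of those changed by 1, with 1 and 10 wrong calls.

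The class of mapped reads was taken from the study's read table by replicate number, with no label that says whether both number the libraries alike. Libraries that stand apart were found after the data had been seen. Genes named in the text were, by rule, the 10 highest per kb, the 4 with the lowest p in each direction and comparison, the listed functional genes, those nearest 5 CPM, the highest of each cluster with at least 3 members, those past 2-fold in a mutant, and the 5 lowest p of the deviation from additivity. Zfp433, Zfp960, Zfp97, Zfp330 and 4 genes named for a motif were chosen after their values were seen. The KRAB box and C2H2 fingers were found by patterns in translated reading frames of the reference transcripts. Promoters came from RefSeq on GRCm38.p6. Alternatives were DESeq2 1.42.0, RLE scaling, no filter, the class as a covariate or 1 class only, a replicate block, other limits of level or cluster distance, and each library left out in turn.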

Additional observations from a re-analysis of the deposited data

Results flagged for a closer look

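For each named gene called in a comparison with wild-type FGOs, the 8 mutant or 10 MII oocytes were examined (90 such groups) for a single oocyte far from the rest, and 4 had one, where chance gives about 1 in 20. All 4 were in Dnmt3a ADD/ADD FGOs. Replicate 4 had 100.1 CPM of Zfp143 (the others 74.61 to 86.55) and 18.4 CPM of Zfp707 (the others 1.139 to 6.486). Replicate 5 had 34.54 CPM of Zfp335 (the others 22.1 to 27.9). Replicate 6 had 17.13 CPM of Zfp758 (the others 9.621 to 12.62).

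The effect of both mutations together differed from the sum of the single effects, by edgeR's test of that difference, with the lowest p in 5 KRAB genes. The deviation on the log2 scale was 0.66 for Zfp472 (adjusted p = 8.82e-06), 0.79 for Zfp944 (adjusted p = 9.75e-06), 1.86 for Zfp40 (adjusted p = 1.02e-05), 0.96 for Zfp709 (adjusted p = 1.77e-05) and 0.74 for Zfp930 (adjusted p = 2.21e-05). With class as a covariate the values were 0.58, 0.65, 1.495, 0.58 and 0.47, all called.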

How the results depend on the processing

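Counts of called members are given here for each comparison with wild-type FGOs under the alternatives that moved them by over 1.5 times. The 28 called in Dnmt3L ADD/ADD FGOs became 9 with no filter, 9 with class as a covariate, 15 with the high class only, 18 without the libraries that stand apart and 70 with a replicate block. The 1 past 2-fold became 2 with DESeq2 and 3 with the block, and 0 with the covariate, the high class, members of at least 10 CPM, members chosen over all libraries, or without the libraries that stand apart. The 54 called in Dnmt3a ADD/ADD FGOs became 14 with the high class only. The 5 past 2-fold became 3 with no filter, 2 with the covariate, 13 with the block, 1 in the high class, 2 among members of at least 10 CPM, 3 among members chosen over all libraries and 0 without the libraries that stand apart. The 22 called in the double mutant became 7 with no filter, 4 with the covariate, 3 with the block, 3 with the low class and 42 without the libraries that stand apart, when 4 passed 2-fold in place of 0. The 83 called in MII oocytes became 38 in the low and 45 in the high class, where fewer libraries enter, and the 10 past 2-fold became 3 among members of at least 10 CPM. Between mutants, the 73 against Dnmt3a ADD/ADD became 15 with the covariate and 28 in the low class, the 62 against Dnmt3L ADD/ADD became 0 with the covariate, and the 0 between the single mutants became 1 with DESeq2 and 1 with the covariate. The 100 that deviated from additivity became 34 with the covariate. The causes were not tested.

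With each library left out in turn, totals ran from 13 to 33 (Dnmt3L), 38 to 59 (Dnmt3a), 8 to 44 (double), 73 to 90 (MII), 55 to 80 and 42 to 78 (double against Dnmt3a and Dnmt3L) and 91 to 113 (additivity), and were 0 between single mutants and between alleles. Past 2-fold they were 1, 2 to 10 (10 without Dnmt3a ADD/ADD replicate 4), 0 to 1 and 10 to 11. Besides the libraries named with the results, double mutant replicates 3, 4, 5 and 8 lowered the double mutant total to 9, 10, 14 and 10, and wild-type replicates 9, 12, 13, 16 and 18 to 13, 12, 13, 14 and 13.

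Of the log2 fold changes of the named genes, 1 turned its sign with a call in either setting, Zfp592 in Dnmt3a ADD/ADD FGOs, from 0.08 (not called) to -0.14 with the high class only. Over the pairs of groups, libraries with the same replicate number had mean correlations from -0.062 to 0.073 (single pairs from -0.607 to 0.539). Those with different numbers had means from -0.0088 to 0.0076. The block is therefore not taken as a pairing of the samples. No class-only fit could be made for Dnmt3L ADD/ADD in the low or the double mutant in the high class. At a distance of 0.5 Mb there were 17 clusters with 95 members, and at 2 Mb 16 with 106. Depth limits the members near 5 CPM most.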
